A study of Mus musculus with 19 samples.

Results

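Autophagy genes were examined in the striatum of WT mice and of 3 lines of mutant huntingtin (HTT) knock-in mice. The genes were 40 named members of the autophagy machinery, taken by the rule that a gene have 10 or more counts in at least 4 of the 19 mice. All 40 met it, among 18952 of the 54232 genes in the table that did, and all 40 were among the 18521 genes tested for differences between genotypes.

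Macroautophagy encloses proteins and organelles in a double membrane and delivers them to the lysosome. The ULK1 kinase complex starts the process, the class III PI3-kinase complex marks the membrane with a lipid, WIPI, ATG2 and ATG9 proteins supply membrane, and a pair of ubiquitin-like conjugation systems attach LC3 and GABARAP proteins to it. Cargo receptors such as p62 (Sqstm1) bind ubiquitinated proteins on one side and LC3 on the other, and neurons depend on this route because they cannot dilute aggregated proteins by division. Polyglutamine proteins such as mutant HTT are among its known cargoes.

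Striatal RNA was sequenced from 7 WT mice and from 4 mice each of the KI-96, the KI-571 and the KI-FL genotype, on the C57/BL/6 background at 6 months of age. KI-FL mice carry the full-length mutant HTT of the HD140Q knock-in, with an expanded CAG repeat in the mouse Htt gene itself. KI-96 and KI-571 mice carry that same expanded allele, cut short by CRISPR/Cas9 so that an N-terminal fragment is made, and the study worked with heterozygous KI mice. For KI-571 only 1 founder was obtained and for KI-96 several, and which founders the sequenced KI-96 mice came from was not given in the sources used here, so that effects of the founder and of the fragment cannot be told apart in either line. Each value below is bulk RNA from tissue, in which fewer cells of a type and less RNA per cell cannot be told apart.

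Between 12669809 and 26388542 reads were counted on genes per mouse, with a median of 18202412. Htt was counted at 178 ± 9.80 CPM (SD, n = 7; CPM, the count scaled to library size) in WT, 186 ± 40.1 CPM (n = 4) in KI-96, 124 ± 15.3 CPM (n = 4) in KI-571 and 158 ± 17.5 CPM (n = 4) in KI-FL mice, and these counts, which sum both alleles, do not check the truncations. All 10 striatal projection neuron markers were detected in every mouse, with summed levels of 5068 to 8873 CPM. Several mice stood apart from the others of their genotype. In KI-96 replicate 3, 24.2% of reads fell in no gene, against at most 16.0% in the other mice. In KI-FL replicate 4 only 16384 genes had a count, against 23177 or more in the others. Cortical neuron markers summed to 1002 CPM in WT replicate 3 and to 403.6 CPM or less elsewhere. Choroid plexus markers summed to 5080 and 5312 CPM in KI-571 replicates 2 and 4 and to 3013 CPM in KI-FL replicate 1, against at most 406 CPM in the rest, and their part in the results was not tested. Xist was at 886 to 1615 CPM in all 4 KI-96 mice, and in 1 WT and 1 KI-FL mouse only, and the labels do not give the sex of the mice.

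Levels of different genes were compared per length of exon (FPKM) in WT mice. LC3 and GABARAP genes and cargo receptors held the highest levels. Gabarapl1, an ATG8 family protein of the autophagosome membrane, stood first at 202 ± 22.6 FPKM (SD, n = 7), higher than 99.3% of all genes tested. Sqstm1 followed at 112 ± 10.6 FPKM and Map1lc3a, which encodes LC3A, at 102 ± 15.8 FPKM, and this pair differed by less than the sum of their SDs. Gabarap reached 62.1 ± 2.14, Gabarapl2 47.8 ± 2.30 and Map1lc3b, which encodes LC3B, 22.3 ± 1.35 FPKM. Of the initiation genes, Atg13 was at 23.8 ± 1.54 FPKM and Rb1cc1 at 6.03 ± 0.436 FPKM. The lipid kinase Pik3c3 was at 12.1 ± 0.613 FPKM and its partner Becn1 at 7.64 ± 0.870 FPKM. Tfe3 (4.24 ± 0.257 FPKM) and Tfeb (2.50 ± 0.318 FPKM), which encode transcription factors of lysosome and autophagy genes, lay near the median of all tested genes. Atg9b, a paralog of the membrane scramblase Atg9a, was the lowest at 1.25 ± 0.301 FPKM, against 10.7 ± 1.01 FPKM for Atg9a. Gabarapl1 and Atg9b kept the first and last place when the longest transcript was used as the length.

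**Figure D1:**
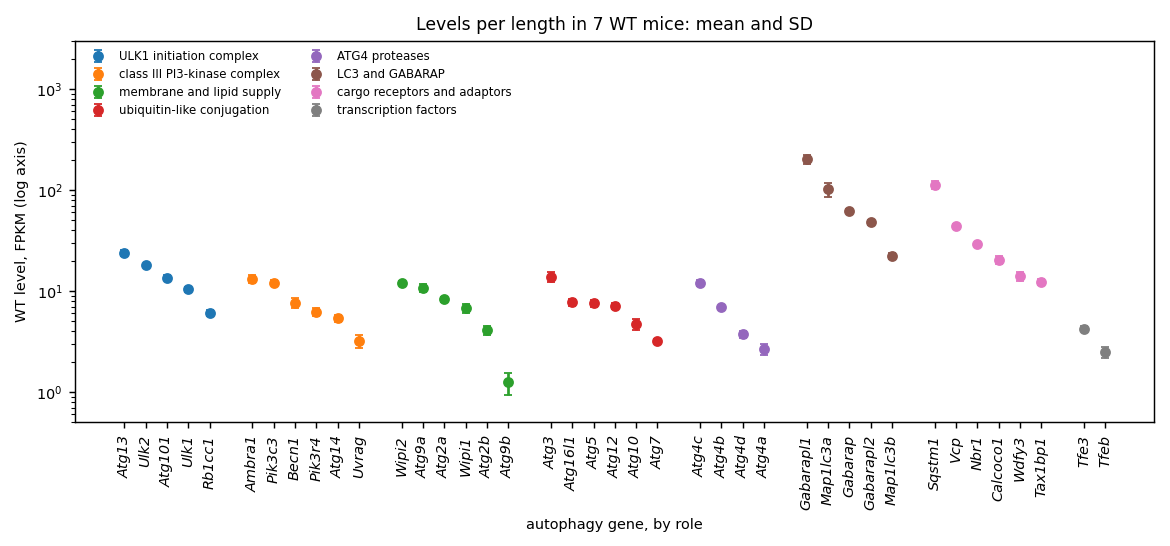
Level of each of the 40 autophagy genes in WT striatum, as the mean (point) and SD (bar) of 7 mice in FPKM on a log axis, grouped and coloured by role. Gabarapl1 is the highest at 202 FPKM and Atg9b the lowest at 1.25 FPKM.

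The spread between mice of one genotype was described for the autophagy genes beside that of all tested genes. The SD of log2 CPM between mice had a median of 0.11 over the 40 genes and 0.22 over all tested genes in WT, 0.17 and 0.31 in KI-96, 0.14 and 0.26 in KI-571, and 0.13 and 0.31 in KI-FL mice, as a description without a test. Most of the 40 lay above the median level of all tested genes in WT, and the spread was not set beside that of genes of like level. Within WT the steadiest was Ulk2 (SD 0.04) and the most variable Atg9b (SD 0.34).

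Promoter sequences from RefSeq (GRCm38.p6) were found for 33 of the 40 genes, in 40 entries, and the 250 bases before each start were searched on both strands for 4 motifs. The E-box core CACGTG, which TFEB and TFE3 bind within the CLEAR element, was in 7.5% of the members' promoters (Atg3, Atg5 and Atg7) and in 6.02% of all 32851 promoters. Its extended form TCACGTGA was in that of Atg3, in 2.5% of the members' promoters and 0.785% of all, and it holds the shorter one. The FOXO core TGTTTA (reverse complement TAAACA) was in Gabarapl1, Ambra1 and Atg4a, or 7.5% against 12% of all, and the antioxidant response core TGACNNNGC was in Atg13, Tax1bp1, Ulk2 and Vcp, or 10% against 10.2% of all. These shares are descriptions of letters and say nothing about binding. Below are shown the stretches free of protein-coding exons for Gabarapl1 and Wipi1, members with a high and a low value in KI-FL mice, and for Atg3, the carrier of the longest match. Capitals mark any of the 4 motifs, and each sequence reads 5′ to 3′ towards the gene.
Gabarapl1 (chr6:129532942-129533159, plus strand): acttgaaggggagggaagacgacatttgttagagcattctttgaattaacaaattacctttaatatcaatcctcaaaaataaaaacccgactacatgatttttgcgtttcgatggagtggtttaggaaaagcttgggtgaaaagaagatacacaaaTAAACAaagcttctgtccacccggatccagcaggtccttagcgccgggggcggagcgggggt
Wipi1 (chr11:109611433-109611639, minus strand): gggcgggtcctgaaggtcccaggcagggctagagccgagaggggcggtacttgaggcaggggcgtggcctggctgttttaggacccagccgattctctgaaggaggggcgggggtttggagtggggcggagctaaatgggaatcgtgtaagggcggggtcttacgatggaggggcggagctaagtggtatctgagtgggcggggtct
Atg3 (chr16:45158707-45158784, plus strand): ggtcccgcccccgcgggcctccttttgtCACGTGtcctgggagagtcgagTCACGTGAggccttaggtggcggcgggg
Gabarapl1 has 1 FOXO core at position -94 from the RefSeq start, Wipi1 has none of the 4 motifs, and Atg3 has E-box cores at -94 and -71.

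To ask whether mutant HTT or its N-terminal fragments alter autophagy transcripts, each KI genotype was compared with WT by edgeR's quasi-likelihood test, in which all 19 mice shared a single estimate of the spread. None of the 40 genes passed an adjusted p of 0.05 (Benjamini-Hochberg over all tested genes) in any of the 7 comparisons between genotypes. Among all genes tested, the calls at that threshold were 0.027% in KI-96, 0.0324% in KI-571 and 0.194% in KI-FL mice against WT. At an unadjusted p under 0.05, 5 members differed for KI-96 (12.5%, against 7.45% of all genes), 3 for KI-571 (7.5%, against 7.72%) and 10 for KI-FL (25%, against 16.7%). For KI-571 the members' share was thus at the background. Of the 5 in KI-96 mice, 4 were higher and 1 lower (10% and 2.5% of members, against 4.36% and 3.09% of all genes). Of the 3 in KI-571 mice, 2 were higher and 1 lower (5% and 2.5%, against 3.89% and 3.83%). Of the 10 in KI-FL mice, 7 were higher and 3 lower than in WT (17.5% and 7.5%, against 7.89% and 8.84%). With DESeq2 as the test, 3 members passed the adjusted threshold for KI-FL (7.5%, against 2.64% of all genes to which DESeq2 gave an adjusted p), 0 for KI-96 (0.138% of all genes) and 0 for KI-571 (0.595%). The 3 comparisons share the WT mice, so that their values are not independent of each other. The mean of all 12 KI mice differed from WT at an unadjusted p under 0.05 in 6 members (15%, against 12.9% of all genes), of which 4 were higher and 2 lower (10% and 5%, against 6.03% and 6.84%). At an adjusted p under 0.05 it differed in 0 members by edgeR (0.054% of all genes) and in 2 by DESeq2 (5%, against 1.31% of all genes), and in 0 did the KI mice not overlap WT (0.0108% of all genes). A test of any difference among the 4 genotypes passed unadjusted in 8 members (20%, against 11.7%), and adjusted in 0 with edgeR (0.14% of all genes) and 1 with DESeq2 (2.5%, against 2.53%).

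The differences were small. The median log2 fold change of the 40 genes was 0.01 in KI-96, 0.01 in KI-571 and 0.06 in KI-FL mice against WT, where the medians of all tested genes were -0.02, -0.01 and -0.03. The 95% interval of the fold lay within 1.5-fold in either direction for 39 genes in KI-96 mice (the exception was Atg4a), 39 in KI-571 mice (Atg9b) and 36 in KI-FL mice (Atg9b, Atg4a, Atg4c and Gabarapl1). These intervals reached a median of 0.21 to either side on the log2 scale, so that differences smaller than this were not detectable for a typical member with these numbers of mice. The groups did not overlap for 0 members in KI-96 mice (1.24% of all genes), for Gabarap and Atg4c in KI-571 mice (5% of members, 1.55% of all genes), and for 6 members in KI-FL mice (15% of members, 5.29% of all genes).

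**Figure D2:**
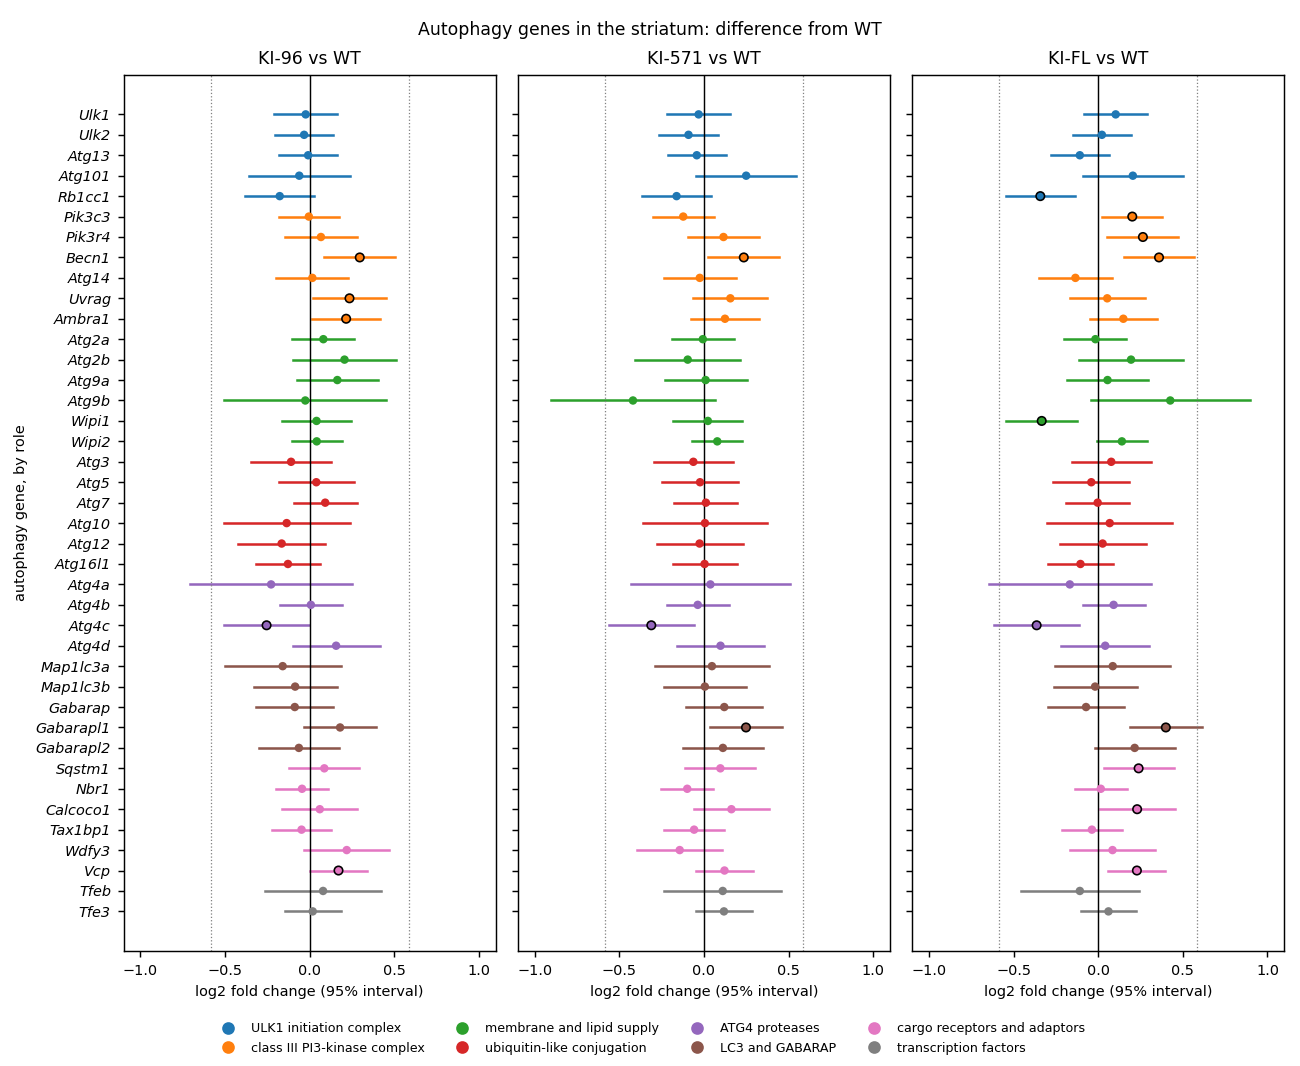
Log2 fold change against WT of the 40 autophagy genes in the 3 KI genotypes (points, 1 panel each), with 95% intervals (lines) from edgeR, coloured by role. Black rims mark an unadjusted p under 0.05 and dotted lines a 1.5-fold difference. Most intervals cross 0, and the 10 rimmed points of KI-FL mice include 7 above and 3 below 0.

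The initiation complex has the kinases ULK1 and ULK2 and the scaffolds ATG13, ATG101 and FIP200, the product of Rb1cc1. In KI-FL mice 1 of these 5 genes, Rb1cc1, was lower than in WT at an unadjusted p under 0.05 (8.84% of all genes were). In the other KI genotypes none was. Rb1cc1 (chr1:6206197-6276648, plus strand) was at 79.4 to 99.6 CPM in WT mice (median 88.8). It was at 82.0, 74.2, 62.7 and 60.8 CPM in KI-FL replicates 1 to 4. The KI-FL mice therefore overlapped WT only in replicate 1, and their mean was lower by a log2 fold change of -0.34 ± 0.10 (SE), with an unadjusted p of 0.00222 and an adjusted p of 0.109. KI-96 mice ranged from 68.9 to 92.5 and KI-571 mice from 74.7 to 85.6 CPM, both overlapping WT. Log2 fold changes of the other initiation genes in KI-FL mice were 0.10 for Ulk1, 0.02 for Ulk2, -0.11 for Atg13 and 0.20 for Atg101. Atg101 was named for the comparison of KI-96 with KI-571 mice. It was at 23.5, 21.4, 14.0 and 23.7 CPM in KI-96 replicates 1 to 4 and at 25.0, 31.9, 24.1 and 21.5 CPM in the KI-571 mice. The groups overlapped, and the log2 difference of -0.31 ± 0.16 had an adjusted p of 0.932. The lowest value belonged to KI-96 replicate 3, and the difference was -0.16 without that mouse and -0.19 without KI-571 replicate 2.

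The class III PI3-kinase complex joins the lipid kinase VPS34 (Pik3c3) and its regulatory subunit VPS15 (Pik3r4) to Beclin 1 (Becn1), which binds either ATG14 or UVRAG, and AMBRA1 regulates it. Of its 6 genes, 3 were higher at an unadjusted p under 0.05 for KI-96, 1 for KI-571 and 3 for KI-FL, and 0 were lower in each. Of all genes, 4.36%, 3.89% and 7.89% were higher and 3.09%, 3.83% and 8.84% lower. The median log2 fold changes of the 6 genes were 0.14, 0.12 and 0.18. The 3 in KI-96 mice were Becn1, Uvrag and Ambra1, and those in KI-FL mice were Becn1, Pik3c3 and Pik3r4.

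Becn1 (chr11:101285952-101302286, minus strand) was at 45.2 to 63.4 CPM in WT mice (median 52.0). It was at 66.2, 68.3, 67.9 and 62.6 CPM in KI-96, at 71.8, 64.9, 67.6 and 49.7 CPM in KI-571 and at 66.8, 77.3, 68.5 and 64.2 CPM in KI-FL replicates 1 to 4. All 4 KI-FL mice lay above every WT mouse, as did 3 of 4 KI-96 and 3 of 4 KI-571 mice. The log2 fold change was 0.30 ± 0.10 (SE) in KI-96 (adjusted p = 0.575), 0.24 ± 0.10 in KI-571 (adjusted p = 0.561) and 0.36 ± 0.10 in KI-FL mice (adjusted p = 0.104). Over all KI mice it was 0.30 ± 0.08 with an adjusted p of 0.112, the smallest of any member in that comparison. The adjusted p was 0.0344 with DESeq2, where 1.31% of all genes passed 0.05. With edgeR it was 0.0364 when KI-571 replicate 4, the one low KI-571 mouse, was left out (0.695% of all genes passed). It was 0.9999 with WT replicates 1 to 4 alone as controls, and over all alternatives it ran from 0.0344 to 0.9999. WT replicates 1 to 3 were the highest WT mice, and with WT replicates 1 to 4 alone as controls the KI-FL value was 0.26 with an adjusted p of 0.562 and the KI-571 value 0.14 (unadjusted p = 0.218). With the log2 level of Xist in the model the KI-96 value was 0.12 ± 0.14, with an unadjusted p of 0.429. Xist level and KI-96 genotype nearly coincided among the mice, so that this fit cannot tell them apart. Of the 100-base stretches of Becn1, 41.1% also belong to Cntd1, which overlaps it on the opposite strand. Since the strand setting of the counting was not given in the sources used here, reads of the shared stretches cannot be told apart. Cntd1 was given 204 counts over all mice, and Becn1 917 to 1514 counts in each mouse.

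Pik3c3 had the smallest p of any member between KI-571 and KI-FL. It was at 50.6 to 58.0 CPM in WT mice (median 54.4), and at 58.7, 68.2, 59.6 and 62.3 CPM in KI-FL replicates 1 to 4. In KI-571 replicates 1 to 4 it was at 55.0, 41.7, 52.1 and 49.7 CPM. The KI-FL mice were above every WT and every KI-571 mouse, by a narrow margin over the highest WT mouse. KI-571 was lower than KI-FL by a log2 difference of -0.32 ± 0.10 with an adjusted p of 0.322. KI-96 mice lay between, at 48.5 to 61.0 CPM, with a log2 difference from KI-FL of -0.21 ± 0.10 (adjusted p = 0.553).

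Ambra1 and Uvrag were named for KI-96. Ambra1 (chr2:91730134-91918849) was at 72.5 to 90.3 CPM in WT mice (median 79.3) and at 100.1, 82.7, 105 and 85.3 CPM in KI-96 replicates 1 to 4. Its log2 fold change of 0.22 ± 0.10 had an adjusted p of 0.653. 2 of the 4 KI-96 mice thus lay within the WT range. Uvrag (chr7:98885021-99141141) was at 25.3 to 35.8 CPM in WT mice (median 26.8) and at 33.6, 34.5, 38.1 and 29.6 CPM in KI-96 mice, with a log2 fold change of 0.24 ± 0.11 and an adjusted p of 0.653. Only replicate 3 was above every WT mouse. KI-96 was compared with WT over mice of unequal Xist level, high in every KI-96 mouse and in only 1 WT mouse. When the log2 level of Xist was added to the model, 0 of the 40 genes passed an unadjusted p of 0.05 in KI-96 mice, against 5 without it. The share of all genes went from 7.45% to 1.17%. Since Xist level and KI-96 genotype nearly coincided, this fit cannot tell them apart. In that fit the log2 fold change of Ambra1 was 0.07 ± 0.14 and that of Uvrag 0.17 ± 0.16. That of Atg4c was -0.28 ± 0.18 (unadjusted p = 0.131). With WT replicates 1 to 4 alone as controls, Ambra1 was at 0.14 and Uvrag at 0.12 on the same scale.

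Membrane is supplied by the lipid transfer proteins ATG2A and ATG2B, the scramblases ATG9A and ATG9B, and the PI3P-binding proteins WIPI1 and WIPI2. In KI-FL mice Wipi1 was lower at an unadjusted p under 0.05 (8.84% of all genes were) and the other 5 genes did not pass. Wipi1 (chr11:109573331-109611967, minus strand) was at 26.03 to 33.7 CPM in WT mice (median 30.3). It was at 29.4 to 33.1 CPM in KI-96 and at 27.6 to 34.7 CPM in KI-571 mice, both over the WT range. In KI-FL replicates 1 to 4 it was at 25.8, 21.7, 25.9 and 21.5 CPM. All 4 KI-FL mice lay below every other mouse of the study, although the highest of them lay next to the lowest WT mouse. The log2 fold change of KI-FL against WT was -0.33 ± 0.10 (adjusted p = 0.123 with edgeR and 0.0346 with DESeq2). KI-96 was higher than KI-FL by 0.37 ± 0.11 (adjusted p = 0.406) and KI-571 by 0.36 ± 0.11 (adjusted p = 0.357) on the log2 scale. Wipi2, in contrast, had a log2 value of 0.14 ± 0.07 in KI-FL mice (adjusted p = 0.322).

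Atg9b (chr5:24384181-24392143, minus strand) gave the widest difference between KI genotypes. It was at 3.46, 3.09, 3.51 and 4.67 CPM in KI-571 and at 4.71, 4.67, 8.04 and 9.01 CPM in KI-FL replicates 1 to 4, where WT mice were at 3.69 to 6.51 CPM (median 4.87). The 2 KI genotypes met at 4.67 CPM and otherwise did not cross. The log2 difference of KI-571 from KI-FL was -0.85 ± 0.26, with an adjusted p of 0.339, and that of KI-571 from WT was -0.42 ± 0.23 with an adjusted p of 0.734. Atg9b shares 5.13% of its stretches with Nos3, which lies on the opposite strand. Atg9a, the more abundant paralog, had log2 fold changes of 0.16, 0.01 and 0.05 in KI-96, in KI-571 and in KI-FL.

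The ubiquitin-like conjugation genes encode the E1-like ATG7, the E2-like ATG3 and ATG10, and ATG5, ATG12 and ATG16L1, which form the E3-like complex that lipidates LC3. None of the 6 passed an unadjusted p of 0.05 in any of the 3 comparisons with WT (7.45%, 7.72% and 16.7% of all genes did). Their log2 fold changes ran from -0.17 to 0.09 in KI-96, from -0.06 to 0.01 in KI-571 and from -0.10 to 0.08 in KI-FL mice. Atg3, with the longest E-box match, was among these, at 35.7 to 49.9 CPM in WT and 38.1 to 56.9 CPM in KI-FL mice.

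ATG4 proteases cut LC3 and GABARAP before conjugation and release them from membrane afterwards. Atg4c was lower at an unadjusted p under 0.05 in each KI genotype against the same WT mice, and the other 3 genes passed in none. Of all genes, 3.09% were lower in KI-96, 3.83% in KI-571 and 8.84% in KI-FL mice. Atg4c (chr4:99193934-99259787, plus strand) was at 36.9 to 44.3 CPM in WT mice (median 39.2). It was at 32.7, 30.5, 34.2 and 36.9 CPM in KI-96, at 32.1, 31.2, 29.2 and 36.7 CPM in KI-571 and at 37.6, 34.5, 31.6 and 20.9 CPM in KI-FL replicates 1 to 4. All KI-571 mice were below every WT mouse, while the highest mouse of the other KI genotypes entered the WT range. The log2 fold change was -0.25 ± 0.12 in KI-96 (adjusted p = 0.669), -0.31 ± 0.12 in KI-571 (adjusted p = 0.487) and -0.36 ± 0.12 in KI-FL mice (adjusted p = 0.152). In KI-FL mice the lowest value belonged to replicate 4, the library with few genes detected. Atg4a, at 5.78 to 8.17 CPM in WT mice, shares 44.2% of its stretches with a pseudogene, Atg4a-ps, and with Syt6, so that its values are uncertain.

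LC3 and GABARAP proteins are the ubiquitin-like tags of the autophagosome membrane. Gabarapl1 was the member with the smallest p in KI-FL mice, and the other 4 genes of the role did not pass in any KI genotype against WT. Gabarapl1 (chr6:129533160-129542346, plus strand) was at 348 to 489 CPM in WT mice (median 391). It was at 539, 476, 380 and 445 CPM in KI-96, at 532, 473, 494 and 430 CPM in KI-571 and at 515, 528, 529 and 570 CPM in KI-FL replicates 1 to 4. The 4 KI-FL mice lay above all WT mice, and the mice of the fragment lines reached from within the WT range to above it. The log2 fold change was 0.40 ± 0.10 in KI-FL (a fold of 1.32; adjusted p = 0.0818), 0.25 ± 0.10 in KI-571 (adjusted p = 0.534) and 0.18 in KI-96 mice. The adjusted p in KI-FL mice was 0.0139 with DESeq2, 0.0370 with only the KI-FL and WT mice in the model and 0.0411 without KI-96 replicate 3, and over all alternatives it ran from 0.0139 to 0.542. The highest WT mouse was replicate 3, the one with cortical neuron markers, and without it the log2 fold change in KI-FL mice was 0.44 with an adjusted p of 0.0506. With WT replicates 1 to 4 alone as controls the KI-FL value was 0.31 and the KI-571 value 0.17 (unadjusted p = 0.174). Gabarapl1 shares 16.3% of its stretches with 1700101I11Rik on the opposite strand.

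**Figure D3:**
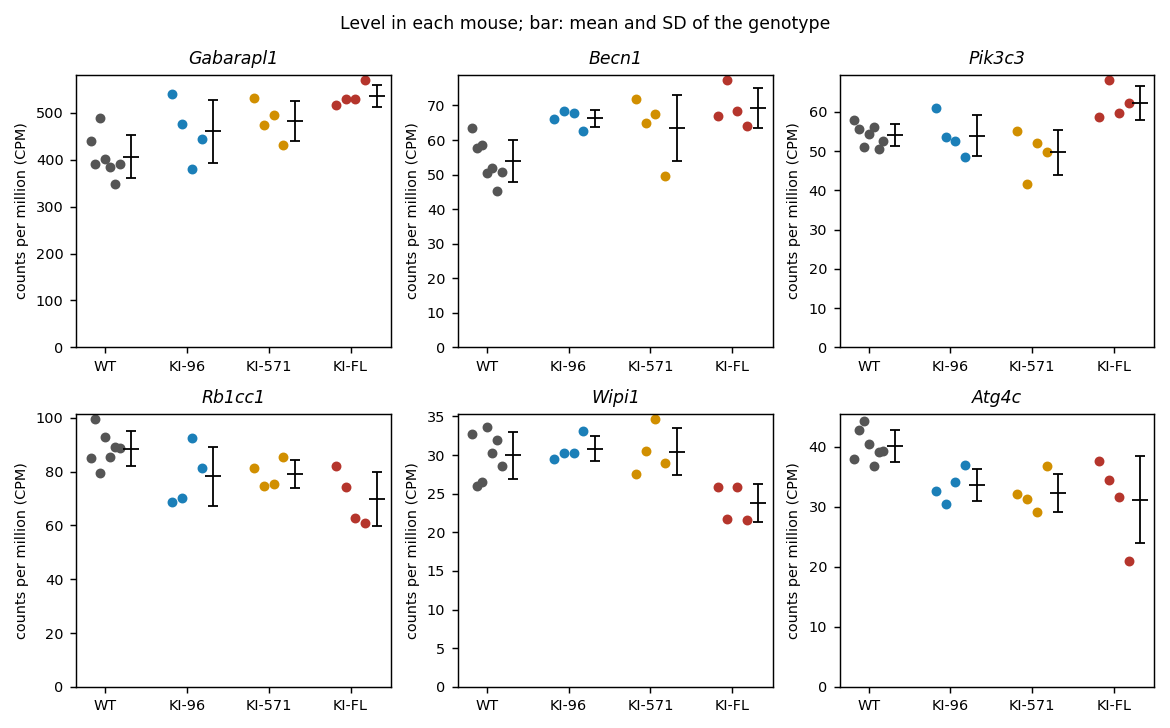
CPM of 6 autophagy genes in each mouse (points), by genotype, with the mean and SD of the genotype as a bar beside them. All axes start at 0. KI-FL mice lie above every WT mouse for Gabarapl1, Becn1 and Pik3c3 and below every WT mouse for Wipi1, and they overlap WT for Rb1cc1 and Atg4c.

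Of the other tags, Gabarapl2 was named for KI-96 against KI-FL. It was at 126, 119, 70.5 and 111 CPM in KI-96 and at 144, 129, 122 and 121 CPM in KI-FL replicates 1 to 4, and its log2 difference of -0.28 ± 0.13 had an adjusted p of 0.550. The KI-FL mice lay just above the WT range of 106 to 119.9 CPM. The low KI-96 value belonged to replicate 3, and without that mouse the log2 difference was -0.12. Map1lc3a, Map1lc3b and Gabarap had log2 fold changes of 0.09, -0.02 and -0.07 in KI-FL mice.

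KI-96 replicate 3 bore on this whole role. The 5 LC3 and GABARAP genes were lower in it than in the mean of the other KI-96 mice by an average log2 difference of -0.71, and it held the lowest KI-96 value for 18 of the 40 members, where KI-571 replicate 4 held the lowest value of its genotype for 17 and KI-FL replicate 4 for 16. Its deviation from the other KI-96 mice was correlated with log2 transcript length across the 40 genes (Pearson's r = 0.71) and less so across all tested genes (r = 0.18). In the other 18 mice r lay between -0.59 and 0.45 over the 40 genes and between -0.19 and 0.15 over all tested genes. The -0.59 and the -0.19 were those of KI-96 replicate 4, whose deviation was taken from a mean that includes replicate 3. Outside the KI-96 mice r lay between -0.38 and 0.45 over the 40 genes and between -0.10 and 0.15 over all tested genes. The 0.18 of KI-96 replicate 3 was thus close to values of other mice. Genes are not independent replicates and these values are descriptions. With all mice, 4 of the 5 LC3 and GABARAP genes were below WT in KI-96 mice with a median log2 fold change of -0.09, and without replicate 3 all 5 were above it with a median of 0.07. The median over all 40 members moved from 0.01 to 0.05, and the members past an unadjusted p of 0.05 in KI-96 mice went from 5 to 4. The share of all genes went from 7.45% to 6.58%. Gabarapl1 then had a log2 fold change of 0.26 in KI-96 mice.

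**Figure D4:**
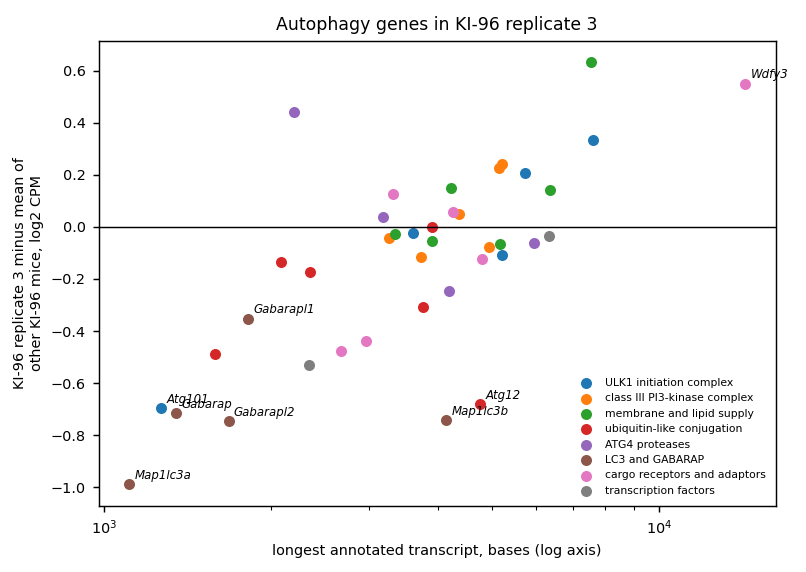
Log2 CPM of KI-96 replicate 3 minus the mean of the other 3 KI-96 mice for each of the 40 autophagy genes, against the length of the longest annotated transcript on a log axis, coloured by role. The 5 LC3 and GABARAP genes lie below 0 at an average of -0.71, Map1lc3b among them with a transcript of 4138 bases, and Wdfy3, with the longest transcript of the 40, lies above 0.

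Cargo receptors and adaptors had 3 of 6 genes higher in KI-FL mice at an unadjusted p under 0.05, Vcp and Sqstm1 among them, 1 for KI-96 (Vcp) and 0 for KI-571. Of all genes, 7.89%, 4.36% and 3.89% were higher in these. Vcp encodes the p97 segregase, which extracts ubiquitinated proteins and acts in the clearance of damaged organelles. It was at 197 to 230 CPM in WT (median 209.9), and at 239, 246, 249 and 262 CPM in KI-FL mice. These did not overlap, with a log2 fold change of 0.23 ± 0.08 and an adjusted p of 0.171. Vcp shares 54.7% of its stretches with the copy Vcp-rs and with 1700022I11Rik, so that the reads could have been split. Sqstm1 was at 337 to 434 CPM in WT (median 355) and at 408, 436, 480 and 448 CPM in KI-FL mice, with a log2 fold change of 0.24 ± 0.10 (adjusted p = 0.235), and Calcoco1, a receptor of the endoplasmic reticulum, had a value of 0.23 ± 0.11 (adjusted p = 0.281). Both overlapped WT. The receptors Nbr1 and Tax1bp1 had log2 fold changes of 0.01 and -0.04 in KI-FL mice.

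Wdfy3, which encodes the aggregate adaptor ALFY, separated KI-96 from KI-571 mice at an unadjusted p of 0.0150. It was at 232, 250.4, 329 and 194 CPM in KI-96 and at 214, 195, 216 and 157 CPM in KI-571 replicates 1 to 4, where WT mice were at 193 to 245 CPM (median 216). The groups overlapped, and the highest value came from KI-96 replicate 3. The log2 difference of 0.36 ± 0.14 had an adjusted p of 0.750. Without that mouse it was 0.21 ± 0.12, and 0 members passed the unadjusted threshold in this comparison (3.86% of all genes). With the log2 level of Xist in the model the difference was 0.20 ± 0.20. Xist was at 886 to 1615 CPM in KI-96 and at 0.913 to 5.05 CPM in KI-571 mice, so that this fit cannot tell Xist level from genotype. Tfeb and Tfe3 differed from WT by log2 fold changes of -0.11 and 0.06 in KI-FL mice, and neither passed in any comparison with WT.

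Between KI genotypes, 3 members passed an unadjusted p of 0.05 for KI-96 against KI-FL (7.5%, against 8.9% of all genes), 3 for KI-571 against KI-FL (7.5%, against 8.9%) and 1 for KI-96 against KI-571 (2.5%, against 5.51%), which is no more than the background in any of them. In the first and the second, Wipi1 was higher in the fragment line (2.5%, against 5.13% and 4.67% of all genes) and 2 members were lower (5%, against 3.77% and 4.23%), and in the third Wdfy3 was higher and 0 members were lower (3.14% and 2.38% of all genes). The adjusted count was 0 in each, both with edgeR and with DESeq2, against 0%, 0.0864% and 0.0054% of all genes with edgeR and 0.224%, 0.472% and 0.165% with DESeq2. Groups did not overlap for Wipi1 in the first (2.5% of members, 3.16% of all genes), for Wipi1, Pik3c3 and Sqstm1 in the second (7.5%, against 4.32%) and for 0 members in the third (2.85% of all genes). The KI-571 mice held the narrow range of 393 to 406 CPM for Sqstm1, just below the lowest KI-FL mouse at 408 CPM. The median log2 differences of the 40 genes were -0.06, -0.04 and 0.01.

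The pattern of Gabarapl1, the member with the smallest p for any difference among the 4 genotypes, was compared with those of the other members over the 19 mice. Sqstm1 (r = 0.86), Becn1 (r = 0.75) and Calcoco1 (r = 0.72) were most like it in log2 CPM. The mice share genotype and library composition, and the values are given as a description.

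Another 126 genes of the pathway, of which 125 were tested, were described as 6 lists. By edgeR 0 passed an adjusted p of 0.05 in any comparison, and by DESeq2 5 did in KI-FL mice (Asah1, Atp6v0c, Man2b1 and Stx17 among them, 4% against 2.64% of all genes), 3 in all KI mice together (Asah1, Ppt1 and Stk11, 2.4% against 1.31%), 2 for any genotype (Stk11 and Vamp8, 1.6% against 2.53%) and 0 elsewhere. At an unadjusted p under 0.05, 9 were higher and 4 lower in KI-96 (10.4%, against 7.45% of all genes), 7 and 3 in KI-571 (8%, against 7.72%) and 12 and 9 in KI-FL mice (16.8%, against 16.7%). Of 35 lysosomal hydrolases and membrane proteins, 3 were higher (Man2b1 and Gaa among them) and 3 lower (Ppt1 and Asah1 among them) in KI-FL mice at an unadjusted p under 0.05. Of all genes, 7.89% were higher and 8.84% lower. Man2b1, lysosomal alpha-mannosidase, went from 58.1 ± 6.19 CPM (SD, n = 7) in WT to 74.8 ± 7.64 CPM in KI-FL (n = 4), with a log2 fold change of 0.36 ± 0.09 (SE; adjusted p = 0.0800). The list thus held values on both sides, with a median log2 fold change of 0.05.

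Of the 12 genes of autophagosome-lysosome fusion, Snap29, Vps33a and Vps18 were higher and Stx17 lower in KI-FL mice at an unadjusted p under 0.05. The shares of all genes, here and for the lists that follow, were 7.89% higher and 8.84% lower. Stx17, the SNARE of the autophagosome, had a log2 fold change of -0.41 ± 0.12 (adjusted p = 0.116), and its SNARE partner Snap29 of 0.31 ± 0.11 (adjusted p = 0.177). Among 31 genes of mTORC1 and AMPK control, Stk11, which encodes the AMPK-activating kinase LKB1, had a value of 0.29 ± 0.09 (adjusted p = 0.131) and Tbc1d7, a subunit of the TSC complex, of -0.52 ± 0.18 (adjusted p = 0.161). Of the 18 vacuolar ATPase genes, which acidify the lysosome, Atp6v0c and Atp6v0a1 were higher. Atp6v0c was at 31.7 ± 18.5 CPM in KI-FL mice and 14.3 ± 2.18 CPM in WT, with a spread in KI-FL mice larger than the difference, and it shares 10.3% of its stretches with Atp6v0c-ps2. Other core autophagy genes (12 tested) had Wdr45 and Atg16l2 lower, and of 17 further cargo and mitophagy receptors tested Ncoa4 was higher and Bnip3l and Stbd1 lower in KI-FL mice. Bnip3l, a mitophagy receptor, had a log2 fold change of -0.25 ± 0.08 (adjusted p = 0.148).

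In KI-571 mice 4 of these pathway genes were higher and 7 lower than in KI-FL mice at an unadjusted p under 0.05 (8.8%, against 8.9% of all genes). The vacuolar ATPase list held 1 of the higher and 4 of the lower ones, where 4.67% of all genes were higher and 4.23% lower. Its member Atp6v0e had a log2 difference of 0.54 ± 0.19 (adjusted p = 0.417). Vamp8, a SNARE of the lysosome, had one of 0.73 ± 0.32 (adjusted p = 0.509). Rraga, a RAG GTPase that recruits mTORC1 to the lysosome, had a log2 difference of -0.37 ± 0.13 (adjusted p = 0.428), and Gaa, lysosomal alpha-glucosidase, one of -0.30 ± 0.12 (adjusted p = 0.496).

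Markers of other cells were set beside these values. Summed astrocyte markers were at 3223 to 3990 CPM in WT and 2992 to 3413 CPM in KI-FL mice, and oligodendrocyte markers at 10402 to 14780 CPM in WT and 9785 to 11352 CPM in KI-FL mice, with overlap in both. Of 6 astrocyte markers, 3 (Gfap, Aqp4 and Gja1) were lower in KI-FL than in WT mice at an unadjusted p under 0.05 and 0 at an adjusted p under 0.05. Of all genes, 8.84% were lower at the unadjusted threshold and 0.194% passed the adjusted one. Microglia markers were at 289 to 410 CPM in WT and 320.4 to 461 CPM in KI-FL mice. Of these 6 markers, Cx3cr1 and Tmem119 were higher and P2ry12 lower in KI-FL mice at an unadjusted p under 0.05 (7.89% and 8.84% of all genes). At an adjusted p under 0.05 the count was 0, and the smallest adjusted p was 0.0744. Red blood cell markers summed to 79.5 to 214 CPM in WT, 163 to 483 CPM in KI-571 and 43.5 to 103 CPM in KI-FL mice, the last pair without overlap. All 5 were higher in KI-571 mice at an unadjusted p under 0.05, both against WT (2 past the adjusted threshold, median log2 fold change 1.13) and against KI-FL (4 past it, median 1.99). Of all genes, 3.89% and 4.67% were higher in these, and 0.0324% and 0.0864% passed the adjusted threshold. The part of these cell markers in the differences of autophagy genes was not tested.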

How the data were processed

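The authors deposited, for each gene and mouse, the raw count of reads, without normalization. Per the methods and the submitters' notes, reads were trimmed with BBduk, aligned to GRCm38 with STAR and counted with HTSeq. The versions, the annotation and the strand setting were not given in the sources used here. The 5 HTSeq summary lines were left out (11.1% to 24.2% of reads in no gene, 4.54% to 5.61% ambiguous, 3.07% to 5.27% not unique), and 4 columns belonging to none of the 19 mice were not used. Positions and lengths were taken from GENCODE mouse release 21.

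Counts were fitted with edgeR 4.0.16 in R 4.3.3 (TMM, filterByExpr with a minimum count of 10 and total of 15, a coefficient per genotype, no covariate; biological coefficient of variation 0.240). The p-values of the quasi-likelihood test were adjusted by Benjamini-Hochberg over 18521 genes. The SE was taken from the F statistic, and log2 CPM had a prior count of 2. The methods name a sacrifice batch and a removed WT sample, neither of which is in the labels, so that no batch term was used and all 7 WT mice were kept. Depth was 12669809 to 26388542 counts on genes per mouse. Shared sequence was sought as stretches of 100 bases of exon that occur in another gene.

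The members and lists were chosen with earlier results of these data known. Members were named for the 4 smallest p-values in each KI genotype against WT, the 2 smallest in each comparison of KI genotypes, and the highest and lowest level per length. From each pathway list the rule took the 2 smallest p-values of KI-FL against WT and of KI-571 against KI-FL. Some genes of the lysosomal list are not reported here. Vcp, Sqstm1, Calcoco1, Gabarap, Pik3r4 and the other members and pathway genes named outside it were chosen after their values were seen. Alternatives were DESeq2 1.42.0, its size factors in edgeR, no filter, at least 10 counts in every mouse, only the groups compared, 1 surrogate variable from sva 3.50.0, log2 CPM of Xist as covariate, WT replicates 1 to 4 alone, the replicate number as a block, and leaving out each mouse. The procedure was tested on simulated data. The replicate numbers of the labels name different animals and were not treated as pairs.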

Additional observations from a re-analysis of the deposited data

Results flagged for a closer look

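The value of each gene in each genotype was checked for a mouse far from the others of its group by Dixon's test, over 160 groups (40 genes in 4 genotypes), of which 8 would be found by chance at 5 percent and 5 were found. In KI-FL mice, Ulk1, the initiating kinase, had a log2 CPM of 6.35 in replicate 4 against 6.11 to 6.14 in the other mice. KI-FL replicate 1 held the flagged, highest value of 3 genes. In it Wipi2 was at 7.30 against 7.06 to 7.09, the conjugation gene Atg5 at 4.36 against 4.01 to 4.06, and the protease gene Atg4a at 3.01 against 2.51 to 2.56. WT replicate 1 had the lowest Atg10, at 2.60 against 2.98 to 3.16.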

How the results depend on the processing

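No member's direction reversed among the named differences under any alternative, and 5 values passed the adjusted threshold that had not (Gabarapl1, Rb1cc1 and Wipi1 in KI-FL mice). The counts moved more. With DESeq2 3 members passed an adjusted p of 0.05 in KI-FL mice (Gabarapl1, Wipi1 and Rb1cc1), 2 in all KI mice (Gabarapl1 and Becn1) and 1 for any genotype (Gabarapl1), against 0 with edgeR, where DESeq2 called 2.64%, 1.31% and 2.53% of all genes and edgeR 0.194%, 0.054% and 0.14%. When the model held only both groups compared, 1 member passed in KI-FL mice (1.89% of all genes). The unadjusted counts were then 3 for KI-96 against WT (10.1% of all genes), 1 for KI-96 against KI-FL (3.54%) and 0 for KI-96 against KI-571 (5.1%). That model gives no value for all KI mice or any genotype. Without the filter on low counts, 2 members passed unadjusted in KI-96 mice (6.4% of all genes) and 1 for KI-96 against KI-FL (9.69%). Of the 7 in KI-FL mice (14.3% of all genes) 4 were higher. With the Xist covariate, which nearly coincides with the KI-96 genotype, the counts were 0 for KI-96 against WT and 0 for KI-96 against KI-571 (1.17% and 1.55% of all genes). With 1 surrogate variable 5 passed for any genotype (11% of all genes). WT replicates 1 to 4 alone left fewer mice in the model. The unadjusted counts were then 0 in KI-96 (2.91% of all genes), 1 in KI-571 (4.13%) and 5 in KI-FL mice (8.5%). They were 3 in all KI mice (4.51%), 1 for KI-96 against KI-FL (6.71%) and 3 for any genotype (6%). With WT replicates 1 to 4 alone the estimates moved too. The log2 fold change of Uvrag in KI-96 mice went from 0.24 to 0.12. That of Gabarapl1 in KI-FL mice went from 0.40 to 0.31, and that of Atg4c in KI-96 mice from -0.25 to -0.30. WT replicates 5 to 7 had 23457270 to 26388542 counts on genes, and WT replicates 1 to 4 had 17281603 to 18945441. The cause of the shifts under these alternatives was not tested.

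With a replicate block the unadjusted counts were 0 in KI-96 (2.92% of all genes), 1 in KI-571 (4.01%) and 6 in KI-FL mice (8.06%). They were 3 in all KI mice (4.38%) and 2 for any genotype (5.52%), and WT replicates 5 to 7 have no partner there. In KI-571 mice the log2 fold change was then 0.14 for Becn1, 0.16 for Gabarapl1 and -0.27 for Atg9b. Deviations of same-numbered mice of different genotypes had a median r of -0.0048 (24 pairs, from -0.128 to 0.290), and those of other pairs one of -0.0049 (108 pairs, from -0.457 to 0.338). Not every same-numbered pair was thus correlated, and the mice were not treated as paired. That 8 of 16 mice correlated best with one of their own number is a hint from the data, not from the design.

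Leaving out 1 mouse at a time gave 0 to 1 members past the adjusted threshold in KI-FL mice (1 without KI-96 replicate 3) and 0 to 1 in all KI mice (1 without KI-96 replicate 3 or KI-571 replicate 4), and 0 in the other comparisons. Of all genes, 0.848% passed in KI-FL mice without KI-96 replicate 3. In all KI mice 0.923% passed without it and 0.695% without KI-571 replicate 4. The share of all genes past an unadjusted p of 0.05 moved as well. It ran from 5.24% to 13.2% in KI-96, 5.4% to 9.94% in KI-571 and 13.2% to 18.7% in KI-FL mice. In all KI mice it ran from 8.71% to 15%, and for any genotype from 8.98% to 14.9%. For KI-96 against KI-FL it ran from 6.67% to 11.1% and for KI-571 against KI-FL from 6.58% to 12.3%. For KI-96 against KI-571 it ran from 3.38% to 9.22%. The unadjusted count of members ran from 1 to 8 in KI-96 mice. It was 8 without KI-96 replicate 4, 1 without KI-96 replicate 1, WT replicate 6 or WT replicate 7, 2 without WT replicate 5, and 3 without WT replicate 2 or 4, KI-96 replicate 2, KI-571 replicate 2 or KI-FL replicate 3. It ran from 0 to 6 in KI-571 mice (0 without KI-571 replicate 3, 1 without replicate 1 and 6 without replicate 4), from 7 to 11 in KI-FL mice and from 5 to 9 in all KI mice. For KI-96 against KI-FL it ran from 1 to 4 (1 without WT replicate 1, 4, 5 or 6 or KI-96 replicate 3), for KI-571 against KI-FL from 3 to 5 (5 without KI-FL replicate 1), and for KI-96 against KI-571 from 0 to 5 (0 without KI-96 replicate 3, 2 without KI-96 replicate 1 or KI-FL replicate 4, 3 without KI-571 replicate 1 and 5 without KI-96 replicate 4). For any genotype it ran from 5 to 9 (5 without KI-571 replicate 2, KI-FL replicate 2 or KI-FL replicate 3). With 4 mice per KI genotype, a typical member's 95% interval of 0.21 on either side limits what could be seen unadjusted. The adjusted threshold asked for larger differences.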
